A study of Mus musculus with 8 samples.

Results

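The genes described here are 47 cell cycle and mitosis genes measured in mouse embryonic fibroblasts (MEFs), out of 19493 endogenous genes in the count table. They were chosen by symbol through their Ensembl identifiers in the GRCm38 annotation. S phase genes (20 members) and G2/M genes (26 members) were kept apart, and the G1 cyclin Ccnd1 was treated on its own. All 47 were found in the table and passed the filter on low counts, with between 93 and 16650 counts per gene and library.

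MEFs are connective tissue cells grown from minced embryos, and these were taken from E14.5 embryos, cultured in DMEM with 10% FBS and detached with trypsin before RNA was extracted. The 4 Dp1Tyb cultures carried Dp(16Lipi-Zbtb21)1TybEmcf, a duplication of the stretch of mouse chromosome 16 from Lipi to Zbtb21 used as a model of Down syndrome, and the 4 wild-type (WT) cultures had no duplication. The labels give C57BL/6J.129P2 as the strain background of both groups, while the methods describe backcrossing to C57BL/6JNimr and wild-type littermates as controls. No drug treatment is listed, and the duplication is carried in every cell with no tissue-specific driver. The labels number the cultures 1 to 4 within a genotype without saying that each came from its own embryo. The p-values therefore set the genotype difference against the spread between these libraries, which may not be a spread between embryos. Synthetic ERCC RNA was added to a fixed number of cells, which gives a spike-in scaling (transcripts relative to the spike-ins) beside a relative scaling (transcripts relative to the rest of the transcriptome). Libraries held 17542855 to 26220207 endogenous counts. CPM are counts per 1000000 of an effective library size, which is set by the scaling, here relative. The fibroblast markers summed to between 27562 and 39625 CPM in every library. Leukocyte markers summed to 208 to 503 CPM, endothelial to 195 to 298 CPM and skeletal muscle to 45 to 151 CPM. Neural and glial markers summed to 59.3 to 87.3 CPM and epithelial markers to 5.34 to 20.4 CPM. The fibroblast sums were highest in WT replicate 2 (39625 CPM), Dp1Tyb replicate 3 (38869 CPM) and Dp1Tyb replicate 2 (38732 CPM) and 27562 to 33794 CPM in the other 5 libraries. Epithelial markers were highest in WT replicate 2 and lowest in Dp1Tyb replicate 1, neural and glial markers were lowest in Dp1Tyb replicate 1, and leukocyte markers were at 208 to 276 CPM in Dp1Tyb replicates 2 to 4 and 362 to 503 CPM elsewhere. The 52 marker genes that passed the filter on low counts, out of 57 analysed, were tested by edgeR, and 0 were called with either scaling. At an unadjusted p under 0.05 there were 5 with spike-in scaling (3 of skeletal muscle, 1 leukocyte and 1 neural or glial) and 10 with relative scaling, where 1.15% and 4.2% of all tested genes passed, and 8 of the 10 were leukocyte markers, all lower in Dp1Tyb, such as Ptprc at a log2 fold change of −0.87 (SE 0.12, edgeR adjusted p = 0.0836). Myod1, Myf5, Krt5, Esrp1 and Elavl3 were not among the genes analysed here, and of the erythroid list only Alas2 was analysed, at 2.13 to 7.15 CPM. The part of other cell types in the results below was not tested.

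The cell cycle is transcribed in waves. In late G1, growth signals raise D-type cyclins, which with CDK4 and CDK6 phosphorylate the retinoblastoma protein and release E2F factors to switch on the genes of DNA replication. Later, the B-MYB and FOXM1 factors act with the MuvB core on promoters that carry a CHR element, often next to CCAAT boxes bound by NF-Y, to switch on the genes of G2 and mitosis. Cells that leave the cycle silence both waves, so the RNA of these genes in a bulk culture is commonly read as a sign of how many cells are cycling, although a smaller share of cycling cells and less RNA per cycling cell cannot be told apart.

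The promoter sequences of the 2 classes are described here by their motifs. The classes follow the waves set out above, so a difference in these motifs is not independent of how the genes were grouped. RefSeq promoter windows on GRCm38.p6, running from 250 bases before to 50 bases after the start site, were matched for 38 of the 47 members, in 41 windows. On both strands, E2F sites were searched as TTTCCCGC, TTTCGCGC, TTTGCCGC or TTTGGCGC, CHR elements as TTTGAA or TTCGAA, and CCAAT boxes as CCAAT. An E2F site was found in 7 of 19 windows of S phase members (36.8%), in 1 of 22 windows of G2/M members (4.55%) and in 2.26% of all 32851 windows of the table. CHR and CCAAT letters stood together in 18 of the 22 windows of G2/M members (81.8%), against 3 of 19 windows of S phase members (15.8%) and 7.52% of all windows. A match is a description of letters, and 2 of the 41 member windows held overlapping matches of different kinds. The 250 bases before the start site are shown for 4 members, chosen because their motifs differ and their levels are described below: Mcm6, a subunit of the replicative helicase, with 3 E2F matches (chr1:128359706-128359955, minus strand), Cdk1, the mitotic kinase, the only one of the matched G2/M members with an E2F match (chr10:69352913-69353162, minus strand), Top2a, the topoisomerase that untangles chromosomes, with 4 CHR and 6 CCAAT matches (chr11:99024190-99024439, minus strand), and Cdc20, the activator of the anaphase-promoting complex, with 1 CHR and 2 CCAAT matches (chr4:118437344-118437593, minus strand). They are written 5′ to 3′ on the strand of the gene, and capitals mark the motif letters on either strand (ATTGG is the reverse complement of CCAAT, and TTCAAA of TTTGAA). The first run of capitals in Mcm6 holds 2 E2F matches on opposite strands that overlap.
Mcm6: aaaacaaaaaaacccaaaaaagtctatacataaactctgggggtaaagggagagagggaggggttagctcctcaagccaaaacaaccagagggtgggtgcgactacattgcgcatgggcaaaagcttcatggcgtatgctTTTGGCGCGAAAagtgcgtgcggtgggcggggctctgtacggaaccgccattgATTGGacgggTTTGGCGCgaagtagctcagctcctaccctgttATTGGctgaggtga
Cdk1: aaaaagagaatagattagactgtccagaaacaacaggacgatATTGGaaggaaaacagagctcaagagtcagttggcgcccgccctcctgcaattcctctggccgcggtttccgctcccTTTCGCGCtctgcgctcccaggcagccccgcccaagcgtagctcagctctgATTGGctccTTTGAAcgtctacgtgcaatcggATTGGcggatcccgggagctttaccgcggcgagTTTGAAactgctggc
Top2a: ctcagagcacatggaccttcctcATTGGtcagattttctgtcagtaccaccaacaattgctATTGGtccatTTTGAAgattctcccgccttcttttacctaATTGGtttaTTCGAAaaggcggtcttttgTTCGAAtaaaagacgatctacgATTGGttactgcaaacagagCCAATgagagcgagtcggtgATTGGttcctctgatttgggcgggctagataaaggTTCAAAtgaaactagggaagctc
Cdc20: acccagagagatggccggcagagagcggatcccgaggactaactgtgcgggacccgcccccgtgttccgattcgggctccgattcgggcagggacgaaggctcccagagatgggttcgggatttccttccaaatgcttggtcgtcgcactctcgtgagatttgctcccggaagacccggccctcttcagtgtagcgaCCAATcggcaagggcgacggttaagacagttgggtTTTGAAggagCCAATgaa

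Whether the amount of cell cycle RNA differed between cultures was read first from the share of all endogenous counts that fell on the 47 members. It was 0.260% in WT replicate 1, 0.485% in WT replicate 2, 0.260% in WT replicate 3 and 0.244% in WT replicate 4. In the Dp1Tyb cultures it was 0.122% in replicate 1, 0.438% in replicate 2, 0.362% in replicate 3 and 0.250% in replicate 4. Both the lowest and the second highest share were thus found among Dp1Tyb cultures, and the groups overlapped.

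The level of a class was taken as the mean log2 CPM over its members. For the G2/M members with relative scaling it was 5.10, 6.32, 5.04 and 4.96 in the WT cultures and 3.56, 6.24, 5.87 and 5.11 in the Dp1Tyb cultures, here and below in the order of their replicate numbers. WT replicate 2, Dp1Tyb replicate 2 and Dp1Tyb replicate 3 were high, Dp1Tyb replicate 1 was low, and the remaining 4 cultures lay close to one another. The highest and the lowest culture differed 6.78-fold, and the spread within a genotype was 2.57-fold among WT and 6.41-fold among Dp1Tyb cultures. Over all cultures the log2 range was 2.76, and 1.36 without Dp1Tyb replicate 1. The difference between genotype means was −0.16 on the log2 scale, with an SD between cultures of 0.65 in WT and 1.19 in Dp1Tyb (n = 4 each).

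The S phase members had the same 3 highest cultures and the same lowest culture, with a smaller range. With relative scaling their level was 4.90, 5.88, 5.22 and 5.22 among WT and 4.26, 5.84, 5.58 and 5.30 among Dp1Tyb cultures. The highest and the lowest culture differed 3.08-fold, and the genotype means differed by −0.06 on the log2 scale (SD 0.41 in WT and 0.69 in Dp1Tyb, n = 4 each). Over all cultures the log2 range was 1.62, and 0.98 without Dp1Tyb replicate 1. The G2/M level minus the S phase level was highest in WT replicate 2 at 0.44 and lowest in Dp1Tyb replicate 1 at −0.70, so the G2/M genes fell further below the S phase genes in the culture where both were lowest.

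With spike-in scaling the order of cultures changed in part. The G2/M level was 5.34, 6.14, 4.55 and 5.19 among WT and 3.83, 5.70, 5.95 and 5.51 among Dp1Tyb cultures, a range of 4.97-fold and a difference between genotypes of −0.06. On the log2 scale that range was 2.31, and 1.59 without Dp1Tyb replicate 1. The S phase level was 5.15, 5.70, 4.73 and 5.45 in WT and 4.53, 5.30, 5.65 and 5.69 in Dp1Tyb, a range of 2.26-fold and a difference of 0.04. WT replicate 3 and Dp1Tyb replicate 2 moved down most. By construction, the shift between scalings is the same for every gene and is set by the endogenous RNA per spike-in. That was least in these libraries, at 0.713 and 0.688 of the geometric mean of the 8 libraries, while the other 6 lay between 0.883 and 1.31. Dp1Tyb replicate 1 stayed lowest for both classes, with 1.20 of the mean endogenous RNA per spike-in.

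**Figure D1:**
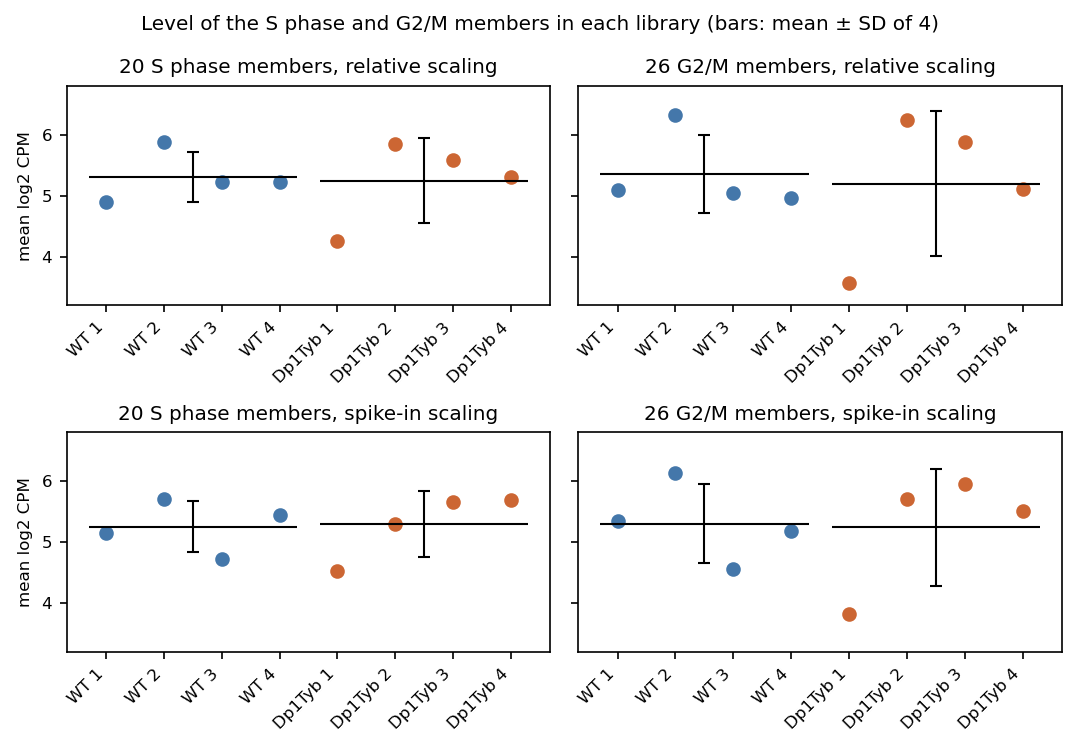
Mean log2 CPM of the 20 S phase members (left) and the 26 G2/M members (right) in each library, with relative scaling above and spike-in scaling below; points are libraries (blue, WT, orange, Dp1Tyb), and black lines with bars are the mean and SD of 4 libraries. In all 4 panels Dp1Tyb replicate 1 is the lowest point, and with relative scaling the G2/M level runs from 3.56 there to 6.32 in WT replicate 2.

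Most members of a class had their high and low values in the same cultures, and the classes shared these cultures with relative scaling but only in part with spike-in scaling. With relative scaling, Dp1Tyb replicate 1 was the lowest library for all 20 S phase members and for 25 of 26 G2/M members, whereas it was lowest for 18.6% of all 16470 tested genes. The exception was Bub3, which was lowest in WT replicate 1. WT replicate 2 was highest for 9 S phase and 20 G2/M members, against 11.4% of all tested genes, and Dp1Tyb replicate 2 was highest for 10 S phase and 6 G2/M members, against 20.6% of all tested genes. Dp1Tyb replicate 3 was among the 3 highest libraries for 19 S phase members and all 26 G2/M members, against 33.2% of all tested genes. With spike-in scaling Dp1Tyb replicate 1 was lowest for 13 S phase and 25 G2/M members, against 4.94% of all tested genes, and WT replicate 2 was highest for 11 and 24, against 3.27% of all tested genes. On that scale the classes parted in 2 cultures: Dp1Tyb replicate 2 was among the 3 highest for 2 of 20 S phase but 23 of 26 G2/M members, and Dp1Tyb replicate 4 for 18 S phase but 3 G2/M members, beside 3.08% and 82.2% of all tested genes. These counts describe the libraries, and genes of one library are not independent of each other.

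**Figure D2:**
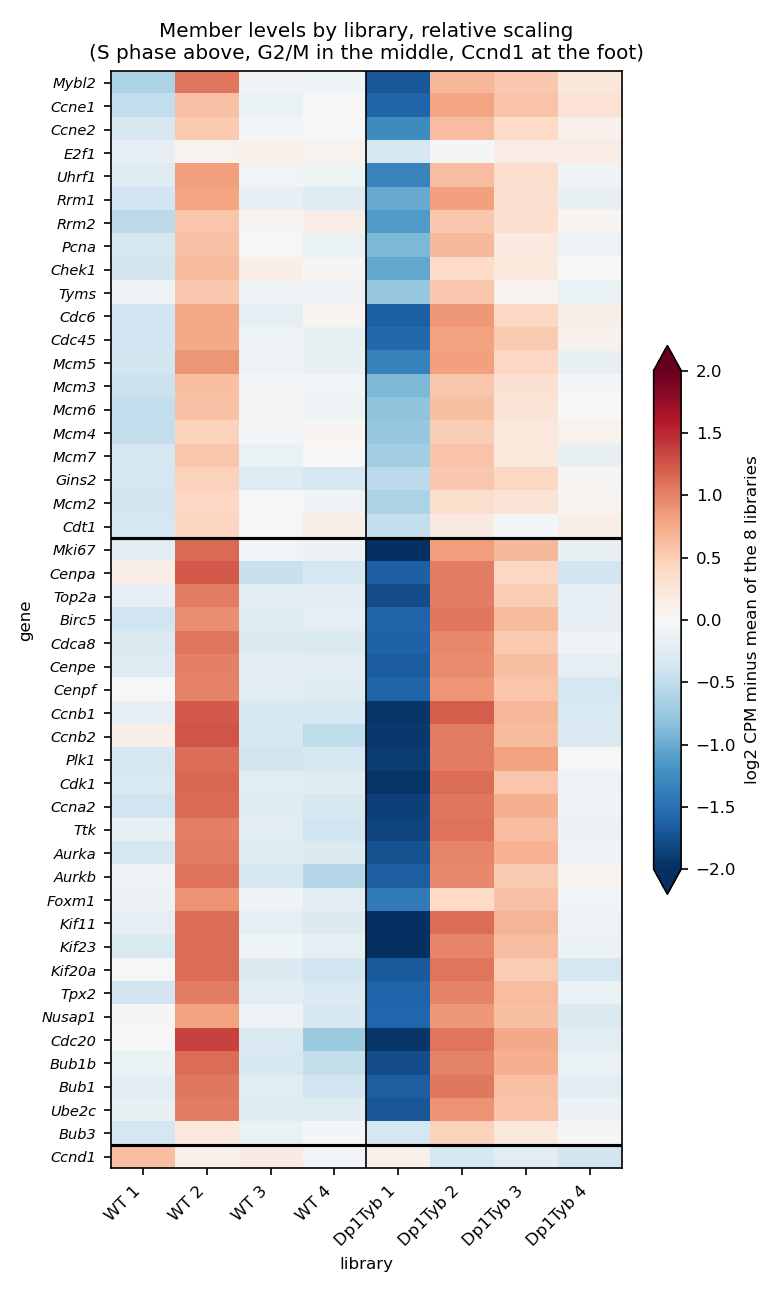
Deviation of each member's log2 CPM (relative scaling) from its mean over the 8 libraries, with genes in rows and libraries in columns; the colour scale is capped at −2 and 2. The column of Dp1Tyb replicate 1 is blue for the S phase and G2/M members, those of WT replicate 2 and Dp1Tyb replicates 2 and 3 are mostly red, and Ccnd1 in the last row has another order.

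How far the members varied between cultures of 1 genotype was measured by the SD of log2 CPM within genotype. Its median was 0.98 over the G2/M members and 0.54 over the S phase members with relative scaling, beside 0.21 over the 11001 tested genes averaging 100 counts or more. The 90th percentile of those 11001 genes was 0.47. Above it lay 25 of 26 G2/M members, 13 of 20 S phase members and 23.2% of all tested genes. With spike-in scaling the medians were 0.84 and 0.45 beside 0.43. The 90th percentile was then 0.64, and 25 G2/M members, only 4 S phase members and 23.5% of all tested genes lay above it. The high spread of the G2/M members was therefore seen with both scalings, and that of the S phase members mainly with relative scaling. Cdc20, Kif11 and Ccnb1 had the highest spread of all members, at 1.16, 1.14 and 1.12, and E2f1, Ccnd1 and Bub3 the lowest, at 0.18, 0.25 and 0.30.

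**Figure D3:**
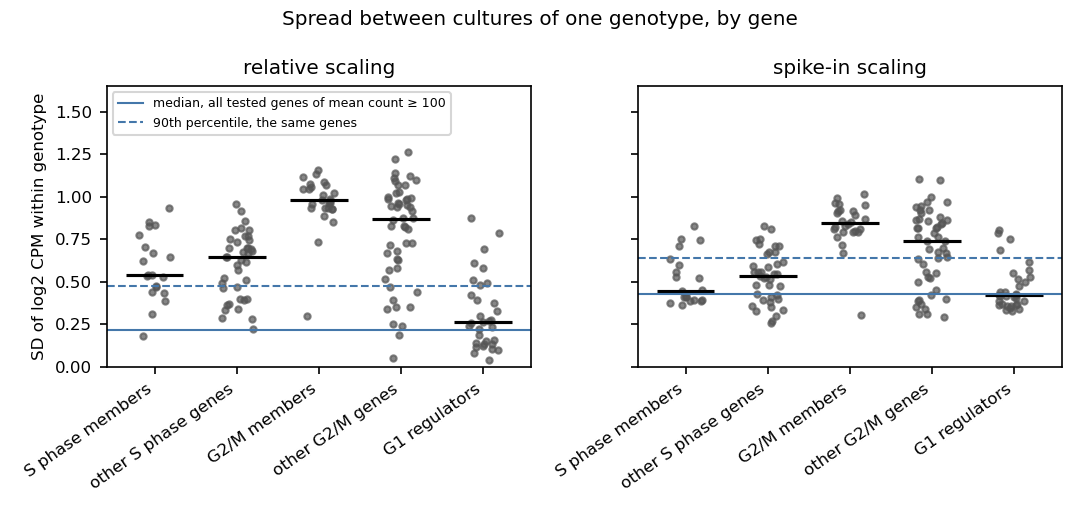
SD of log2 CPM between cultures within genotype, 1 point a gene, for members, other S phase and G2/M genes and G1 regulators, with relative scaling on the left and spike-in scaling on the right; black bars are medians, and blue lines are the median and 90th percentile of tested genes averaging 100 counts or more. With relative scaling 25 of 26 G2/M members lie above the dashed line at 0.47.

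The question of whether the genotypes differ was put to every gene with edgeR's quasi-likelihood test. None of the 47 members passed an adjusted p of 0.05 (Benjamini-Hochberg over all tested genes) in either scaling. In the same tests 2 of 16470 genes (0.0121%) were called when scaled to the spike-ins and 2 (0.0121%) when scaled to the transcriptome. Among the 11001 tested genes averaging 100 counts or more, 0 were called with either scaling. The lack of called members therefore cannot show that the genotypes were alike. By DESeq2 with the same size factors 0 members were called with either scaling, beside 52 of 16470 genes (0.316%) with relative and 2 (0.0121%) with spike-in scaling. At an unadjusted p under 0.05 by edgeR, 0 members passed with spike-in scaling, where 1.15% of all tested genes did, and only Ccnd1 passed with relative scaling, where 4.2% did. For no member did the 4 Dp1Tyb libraries all lie above or all below the 4 WT libraries with relative scaling, whereas 3.16% of all tested genes showed such a gap. The median log2 fold change (Dp1Tyb over WT) with relative scaling was 0.00 over the S phase members and 0.03 over the G2/M members, beside 0.01 over all tested genes. The G2/M median and the difference of −0.16 between the mean G2/M levels differ in sign, and they are different summaries, the one a median over genes of fitted fold changes and the other a difference of mean log2 levels. With spike-in scaling the median over all tested genes moved to 0.11, and the medians of 0.07 for S phase and 0.02 for G2/M members lay below it.

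The precision of these comparisons was low, with a median standard error of 0.52 (log2) over the G2/M members and 0.30 over the S phase members with relative scaling, against 0.19 over all tested genes. Leaving out single libraries moved the G2/M median with relative scaling from 0.03 to between −0.35 without Dp1Tyb replicate 2 and 0.52 without WT replicate 2, and it was 0.33 without Dp1Tyb replicate 1. The S phase median moved to between −0.21 without Dp1Tyb replicate 2 and 0.23 without either WT replicate 2 or Dp1Tyb replicate 1. With spike-in scaling the G2/M median lay between −0.19 without Dp1Tyb replicate 3 and 0.41 without WT replicate 2, and the S phase median between −0.09 without WT replicate 3 and 0.26 without Dp1Tyb replicate 1. The sign of the difference between genotypes in either class thus depended on single cultures. These fits had no block for replicate number. With such a block and spike-in scaling, the G2/M median was −0.07 rather than 0.02, and the S phase median 0.03 rather than 0.07. The sign for G2/M thus also depended on the block.

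**Figure D4:**
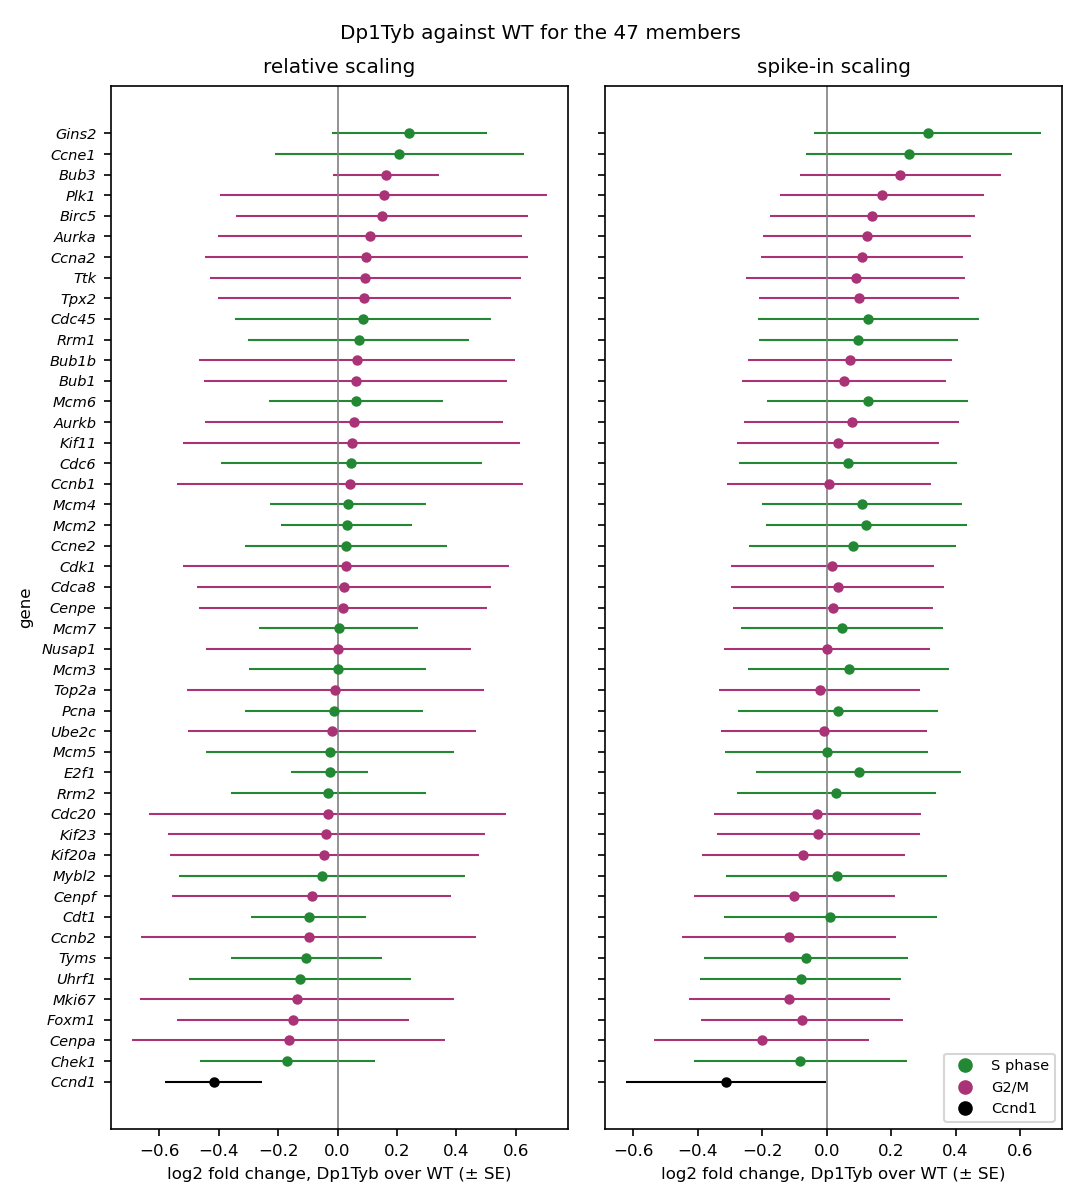
Log2 fold change of Dp1Tyb over WT for the 47 members (relative scaling left, spike-in scaling right), ordered by the relative fold change. Bars are standard errors derived from the F statistic of the edgeR test, and colours give the class. With relative scaling all points but Ccnd1 at −0.42 lie between −0.17 and 0.24, and the bars of the other 46 members cross 0.

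Among the G1/S cyclins and transcription factors, Ccne1 (chr7:38097984-38107534, minus strand, GRCm38) encodes cyclin E1, which with CDK2 drives entry into S phase. Its level with relative scaling was 18.9, 39.9, 24.2 and 26.5 CPM in WT and 8.78, 46.1, 39.4 and 32.6 CPM in Dp1Tyb. It was low in Dp1Tyb replicate 1, while the other 3 Dp1Tyb cultures lay above WT replicates 1, 3 and 4, and the means were 27.4 ± 8.93 CPM in WT and 31.7 ± 16.3 CPM in Dp1Tyb (SD, n = 4). The edgeR log2 fold change was 0.21 (SE 0.42, adjusted p = 0.999). Ccne2, the second cyclin E, and Mybl2, which encodes B-MYB, varied 3.67-fold and 6.88-fold over the 8 libraries. E2f1, the activating E2F factor itself, departed from its class, at 25.2, 29.9, 30.4 and 29.7 CPM in WT and 22.9, 27.5, 31.4 and 31.4 CPM in Dp1Tyb. It was lowest in Dp1Tyb replicate 1 like the rest, but its whole range was 1.37-fold.

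The genes of origin licensing and the replicative helicase had a narrower range. Mcm2 to Mcm7 encode the 6 subunits of the MCM helicase ring, and their highest and lowest libraries differed between 2.06-fold (Mcm2) and 4.72-fold (Mcm5). Mcm5 (chr8:75109569-75128439, plus strand) was at 28.9, 68.9, 34.9 and 33.4 CPM in WT and 14.6, 66.1, 49.4 and 33.5 CPM in Dp1Tyb, so that WT replicate 2 and Dp1Tyb replicate 2 stood at the top of each group. Its means were 41.5 ± 18.4 CPM in WT and 40.9 ± 22.0 CPM in Dp1Tyb (SD, n = 4), with an edgeR log2 fold change of −0.02 (SE 0.42, adjusted p = 0.999). Mcm2 (chr6:88883474-88898780, minus strand) was at 52.1, 89.7, 66.9 and 64.2 CPM in WT and 43.5, 85.4, 80.1 and 69.9 CPM in Dp1Tyb. Within each genotype its cultures had the same order as for Mcm5, over a smaller range, and its log2 fold change was 0.03 (SE 0.22). Mcm6, whose promoter carries 3 E2F matches, varied 2.64-fold.

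The genes that load the helicase or join its active form divided into genes with a wide and genes with a narrow range. Cdc6, which loads MCM rings at origins, varied 5.68-fold, and Cdc45, which joins the active helicase, 5.15-fold. Cdc45 lies on chromosome 16 outside the duplicated stretch, and its log2 fold change was 0.09 (SE 0.43). Cdt1, the partner of Cdc6 in loading, was at 14.52, 25.0, 18.6 and 20.1 CPM in WT and 13.4, 21.1, 18.4 and 20.4 CPM in Dp1Tyb, a range of 1.87-fold and a log2 fold change of −0.10 (SE 0.19). Gins2, a subunit of the GINS complex of the active helicase, was at 8.85, 15.3, 9.29 and 8.83 CPM in WT and 7.77, 16.2, 14.8 and 11.3 CPM in Dp1Tyb. It had the smallest p of the S phase members, with a log2 fold change of 0.24 (SE 0.26, edgeR adjusted p = 0.999), and 1 of its Dp1Tyb libraries was above all WT libraries. With relative scaling the log2 fold change lay between 0.093 without Dp1Tyb replicate 2 and 0.49 without WT replicate 2 when single libraries were left out.

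At the replication fork, Pcna (chr2:132249162-132253314, minus strand), the sliding clamp of the DNA polymerases, was at 71.7, 134.8, 89.0 and 81.9 CPM in WT and 47.9, 140.6, 103 and 83.3 CPM in Dp1Tyb. The 2 cultures numbered 2 were high and Dp1Tyb replicate 1 was low, and the means of 94.3 ± 27.9 and 93.7 ± 38.7 CPM (SD, n = 4) were nearly equal, with an edgeR log2 fold change of −0.01 (SE 0.30, adjusted p = 0.999). Rrm1 and Rrm2, the subunits of ribonucleotide reductase, varied 3.56-fold and 3.23-fold, and Tyms, which makes thymidylate, 2.47-fold. Uhrf1, which recognises newly replicated DNA for methylation, varied 4.51-fold. Chek1, the checkpoint kinase that guards stalled forks, was at 13.5, 27.2, 19.0 and 17.7 CPM in WT and 8.62, 22.8, 20.1 and 17.6 CPM in Dp1Tyb, with a log2 fold change of −0.17 (SE 0.30). RPKM here is CPM per kilobase of all exons annotated to a gene, a length that can exceed that of any single transcript. By this measure Rrm2 was highest of the S phase members at a mean of 50.8 RPKM, followed by Pcna at 39.2 RPKM.

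Among the mitotic cyclins and kinases, Cdk1 (chr10:69335146-69352938, minus strand) was at 37.4, 101.9, 39.5 and 39.0 CPM in WT and 11.8, 100.4, 67.4 and 43.0 CPM in Dp1Tyb. Its promoter, shown above, carries CHR, CCAAT and E2F letters. WT replicate 2 and Dp1Tyb replicate 2 were about equal at the top, Dp1Tyb replicate 1 stood 8.61-fold below WT replicate 2, and the log2 fold change was 0.03 (SE 0.55, edgeR adjusted p = 0.999). Ccnb1 (chr13:100778650-100786570, minus strand), the B-type cyclin that partners CDK1, was at 35.8, 93.5, 32.2 and 31.4 CPM in WT and 10.4, 92.6, 63.6 and 32.3 CPM in Dp1Tyb, a range of 9.03-fold and a log2 fold change of 0.04 (SE 0.58). Ccnb2 and Ccna2, the other mitotic cyclins of the list, varied 9.12-fold and 8.0-fold. Plk1, which drives mitotic entry and spindle assembly, varied 8.07-fold, Ttk, the MPS1 kinase of the spindle checkpoint, 7.57-fold, Aurka, a centrosome kinase, 6.81-fold, and Aurkb, the kinase of the chromosome passenger complex, 6.61-fold. Foxm1, a transcription factor of this wave, was at 41.8, 84.6, 42.5 and 39.3 CPM in WT and 17.1, 59.4, 67.7 and 43.8 CPM in Dp1Tyb. Its range of 4.95-fold was the narrowest of the 9 genes with this role, and Dp1Tyb replicate 3 rather than replicate 2 led its Dp1Tyb cultures.

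In the spindle checkpoint and the anaphase-promoting complex, Cdc20 (chr4:118432901-118437352, minus strand) was at 24.7, 63.3, 19.9 and 14.6 CPM in WT and 6.34, 51.3, 41.4 and 21.0 CPM in Dp1Tyb. Its 9.97-fold range was the widest of all 47 members, although the means of 30.6 ± 22.2 CPM in WT and 30.0 ± 20.2 CPM in Dp1Tyb (SD, n = 4) were nearly equal, with a log2 fold change of −0.03 (SE 0.60, edgeR adjusted p = 0.999). With spike-in scaling Cdc20 was at 29.3, 55.8, 14.2 and 17.0 CPM in WT and 7.64, 35.3, 43.6 and 27.6 CPM in Dp1Tyb, where Dp1Tyb replicate 3 rather than replicate 2 led its group. Bub1 and Bub1b, kinase and pseudokinase of the checkpoint, varied 6.56-fold and 7.45-fold, and Ube2c, the ubiquitin-conjugating enzyme of the complex, 6.66-fold. Bub3, which binds both BUB proteins, departed from the class at 60.9, 90.4, 70.8 and 76.9 CPM in WT and 61.4, 107, 90.2 and 76.2 CPM in Dp1Tyb. Its range was 1.76-fold and its log2 fold change 0.16 (SE 0.18, edgeR adjusted p = 0.999), and its promoter windows hold 1 CHR and 2 CCAAT matches like those of Cdc20.

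Among the motors and spindle proteins, Kif11, the kinesin that pushes spindle poles apart, was at 45.9, 113, 46.0 and 43.4 CPM in WT and 11.6, 113, 84.1 and 48.5 CPM in Dp1Tyb. Dp1Tyb replicate 2 stood 9.81-fold above Dp1Tyb replicate 1, and the log2 fold change was 0.05 (SE 0.57). Kif23 and Kif20a, kinesins of cytokinesis, varied 8.63-fold and 6.97-fold, and the spindle proteins Tpx2 and Nusap1 varied 6.13-fold and 5.47-fold.

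Mki67 (chr7:135689784-135716361, minus strand) encodes Ki-67, the protein stained in tissues to mark cycling cells. It received 6096, 16650, 6537 and 6055 reads in the WT libraries and 1974, 9904, 10245 and 5009 reads in the Dp1Tyb libraries. With relative scaling that was 272, 706, 309.7 and 294 CPM in WT and 76.3, 571, 504 and 288 CPM in Dp1Tyb, a range of 9.25-fold. With spike-in scaling it was 323, 623, 221 and 344 CPM in WT and 91.9, 393, 531 and 379 CPM in Dp1Tyb, a range of 6.78-fold. WT replicate 2 was highest and Dp1Tyb replicate 1 lowest on both scales. Means were 396 ± 208 CPM in WT and 360.0 ± 224 CPM in Dp1Tyb (SD, n = 4), and the log2 fold change was −0.14 (SE 0.53, edgeR adjusted p = 0.999). The exact 95% Poisson interval of the count in Dp1Tyb replicate 1 was 1888 to 2063, and it covers counting error only, so counting error was small beside the differences between cultures.

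Top2a (chr11:98992943-99024189, minus strand) was at 185, 420.5, 179 and 179 CPM in WT and 60.6, 419.5, 293 and 185 CPM in Dp1Tyb. Its range was 6.93-fold, with WT replicate 2 and Dp1Tyb replicate 2 level at the top, and it had a log2 fold change of −0.01 (SE 0.50). Birc5, or survivin, and Cdca8, or borealin, both of the chromosome passenger complex, varied 6.35-fold and 6.47-fold, and their log2 fold changes were 0.15 (SE 0.49) and 0.02 (SE 0.49). Cenpa, the histone variant of centromeres, was at 16.5, 35.2, 10.99 and 11.8 CPM in WT and 4.83, 30.6, 19.9 and 11.5 CPM in Dp1Tyb, with a range of 7.28-fold and a log2 fold change of −0.16 (SE 0.53). The kinetochore proteins Cenpe and Cenpf varied 6.33-fold and 6.04-fold. In RPKM, which depends on the annotated exons, Mki67 and Top2a were highest of the G2/M members at means of 37.6 and 26.6 RPKM. Cenpa was lowest at 3.01 RPKM, over an annotated exon length of 5860 bases.

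Ccnd1 (chr7:144929931-144939925, minus strand), cyclin D1, is induced by growth factors in G1 and did not follow the order of the other members. With relative scaling it was at 305.5, 216, 226 and 194 CPM in WT and 217, 158, 174 and 156 CPM in Dp1Tyb. WT replicate 1 was highest and Dp1Tyb replicate 4 lowest, the Dp1Tyb cultures were mostly lower, and the groups overlapped through Dp1Tyb replicate 1. At each replicate number the Dp1Tyb culture was below the WT culture, but the sources used here do not say what a shared number marks. Means were 235 ± 48.5 CPM in WT and 176 ± 28.4 CPM in Dp1Tyb (SD, n = 4), a log2 fold change of −0.42 (SE 0.16, edgeR adjusted p = 0.999). With spike-in scaling it was −0.31 (SE 0.31), and Dp1Tyb replicate 2 was lowest. Without WT replicate 1 the log2 fold change was −0.26 with relative and −0.021 with spike-in scaling, and with spike-in scaling it was −0.11 without Dp1Tyb replicate 2 and −0.50 without Dp1Tyb replicate 1. It was the only member to pass an unadjusted p of 0.05, and it was not called after adjustment over all tested genes.

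**Figure D5:**
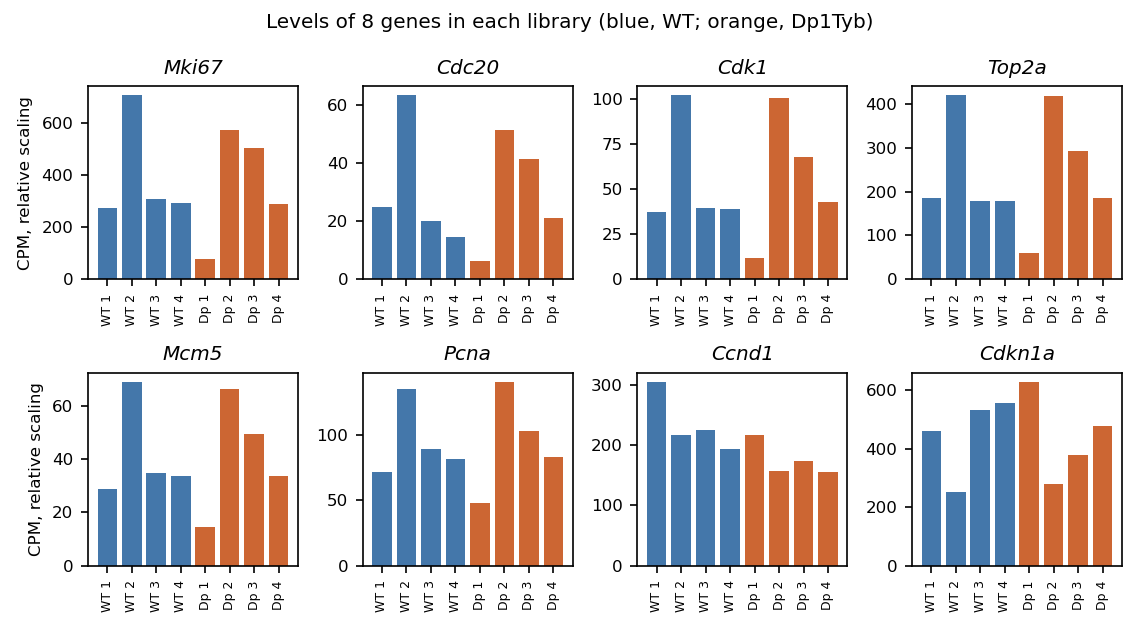
Level in CPM (relative scaling, linear axes from 0) of 8 genes in each library, with WT in blue and Dp1Tyb in orange. Mki67, Cdc20, Cdk1, Top2a, Mcm5 and Pcna have their lowest bar in Dp1Tyb replicate 1, Ccnd1 is highest in WT replicate 1 at 305.5 CPM, and the CDK inhibitor gene Cdkn1a has its highest bar in Dp1Tyb replicate 1 at 629 CPM.

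Other genes of the cycle that are not members were read from lists of 39 S phase genes, 50 G2/M genes and 32 G1 regulators, all of them tested. None of the 39, none of the 50 and none of the 32 was called by edgeR with either scaling, and at an unadjusted p under 0.05 the first 2 lists had 0 genes with either scaling, while the G1 regulators had 2 with relative and 1 with spike-in scaling, where 4.2% and 1.15% of all tested genes passed. The other S phase genes had a level 3.28-fold higher in the top than in the bottom library with relative scaling, and the other G2/M genes 4.52-fold. Dp1Tyb replicate 1 was lowest for 37 of 39 and 45 of 50 of them, and WT replicate 2 was among the 3 highest libraries for 39 and 47, against 38.8% of all tested genes. With spike-in scaling Dp1Tyb replicate 1 was lowest for 25 and 38 of them and WT replicate 3 for 14 and 12, beside 4.94% and 38.9% of all tested genes. With relative scaling Dp1Tyb replicate 1 and WT replicate 2 were thus low and high in the wider lists as in the members. By smallest p, Wdr76 (1.67-fold over libraries, log2 fold change −0.20, SE 0.16, and −0.094 without Dp1Tyb replicate 1) and Dscc1 (8.02-fold, −0.36, SE 0.48, and with relative scaling −0.020 without Dp1Tyb replicate 1, −0.058 without WT replicate 2 and −0.76 without Dp1Tyb replicate 2), which acts in sister chromatid cohesion at the fork, stood first among the S phase genes, and Pttg1 (1.43-fold, 0.17, SE 0.16, and 0.081 without Dp1Tyb replicate 2), which encodes securin, and Kif15 (6.92-fold, −0.28, SE 0.47), a spindle kinesin, among the G2/M genes.

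The mean log2 CPM of the G1 regulators, a list that mixes activators and inhibitors, had a 1.35-fold range over cultures with relative scaling and 1.86-fold with spike-in scaling. Gene by gene the range had a median of 1.69-fold with relative scaling and reached 7.68-fold in E2f2. On that scale 8 of the 32 genes (25%) lay above the 90th percentile of spread, beside 23.2% of all tested genes. Cdk4, the partner kinase of cyclin D1, varied only 1.10-fold with relative scaling. Cdkn1a encodes p21, which inhibits CDK2 and CDK1 and is a target of p53, and it ran in another order, at 462, 253, 531 and 557 CPM in WT and 629, 281, 377 and 479 CPM in Dp1Tyb. It was highest in Dp1Tyb replicate 1, where the G2/M level was lowest, and lowest in WT replicate 2, where that level was highest. Its log2 fold change between genotypes was −0.03 (SE 0.28, edgeR adjusted p = 0.999), and with spike-in scaling its lowest library was Dp1Tyb replicate 2.

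The 2 G1 regulators with the smallest p were Cdkn2b and Lin37. Cdkn2b encodes p15, an inhibitor of CDK4 and CDK6, and was at 35.8, 31.4, 28.5 and 23.1 CPM in WT and 49.2, 44.4, 40.3 and 38.0 CPM in Dp1Tyb. The lowest Dp1Tyb library was above the highest WT library (3.16% of all tested genes had such a gap in either direction), and the log2 fold change was 0.53 (SE 0.15, edgeR adjusted p = 0.854). With spike-in scaling it was 0.63 (SE 0.32). Its unadjusted p was under 0.05 in both fits, but with spike-in scaling the groups overlapped, as WT replicate 1 (42.5 CPM) lay above Dp1Tyb replicates 2 (30.5 CPM) and 3 (42.4 CPM). Lin37, a subunit of the MuvB core, was at 7.02, 6.11, 6.11 and 6.31 CPM in WT and 8.004, 9.29, 7.73 and 7.54 CPM in Dp1Tyb. Its groups did not overlap either with relative scaling but did with spike-in scaling, and it had a log2 fold change of 0.35 (SE 0.14, edgeR adjusted p = 0.999), and neither gene was called after adjustment.

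Some counts can be affected by how reads were assigned. Pcna, Tyms, Ccnb1 and Ccnb2 have named pseudogenes in the annotation, and reads aligning to more than 1 place had been discarded. The strand setting of the counting is not given in the sources used here, and 17 of the 47 members, among them Mki67, Top2a, Cdc20, Kif11 and Ccnd1, are overlapped by a gene on the opposite strand. None of the members lies in the duplicated stretch.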

How the data were processed

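Poly(A) RNA of 8 MEF cultures with ERCC spike-ins was sequenced as paired ends of 100 bases in stranded TruSeq libraries. Per the methods and labels, the authors trimmed adapters with Trim Galore, aligned reads to GRCm38 and the spike-in sequences with TopHat 2.0.12, discarded reads with several alignments and counted the rest per gene with htseq-count, which leaves genes with close copies undercounted. The annotation release and the strand setting are not given in the sources used here. The deposited table of raw counts covers 19493 endogenous genes and 63 spike-ins and was not normalised. The authors' normalised table and their DESeq2 1.6.3 table, which holds fold changes and p-values, were not used.

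The members and the gene lists were chosen with earlier results of these data known. Genes named with full values were 11 set by name, the 4 with the smallest p in each class, the 3 with the highest and the 3 with the lowest spread, and the 2 with the smallest p in each wider list. Pseudocounts of 0.5 counts were used for log2 CPM, and RPKM used the merged length of all exons annotated to a gene in GENCODE M21. filterByExpr kept 16470 genes. Dp1Tyb was compared with WT by the two-sided quasi-likelihood test of edgeR 4.0.16 (R 4.3.3), with median-of-ratios factors over the spike-ins (the study normalised to the spike-ins, by factors not given in the sources used here) or TMM factors over endogenous genes, and p-values were adjusted after Benjamini-Hochberg, with 0.05 as the threshold for a call. Standard errors (SE) were derived as the absolute log2 fold change divided by the square root of the F statistic of the edgeR test. DESeq2 1.42.0, other factors, filters and pseudocounts, a replicate block and leaving out single libraries were tried as alternatives. Libraries of 1 genotype differed by 10.5 to 96.8 times the sampling noise (chi-square per degree of freedom), so none was counted as a duplicate. Intervals cover counting error only.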

Additional observations from a re-analysis of the deposited data

Results flagged for a closer look

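Among 4 libraries of a genotype, a gene was singled out where the gap of 1 library to the nearest of the others made up more of the whole range than Dixon's 95% critical value allows. Of 98 groups examined 20 met this, where chance would give about 1 in 20, and the genes rise and fall together, so these are not 20 independent findings. For 18 genes WT replicate 2 was far above the other 3 WT libraries on the log2 CPM scale with relative scaling. Of these, 2 were S phase members, Gins2 at 3.94 and Tyms at 5.66. The transcription factor Foxm1 was at 6.40, and the cyclins and kinases were Ccna2 at 6.78, Ccnb1 at 6.55, Cdk1 at 6.67, Aurka at 5.53, Plk1 at 6.05 and Ttk at 4.70. In the spindle and its checkpoint they were Bub1 at 6.01, Ube2c at 5.72, Kif11 at 6.82, Kif23 at 6.30 and Tpx2 at 7.42. At centromeres and chromatin they were Cenpe at 7.37, Cdca8 at 5.13, Mki67 at 9.46 and Top2a at 8.72. The mean level of the G2/M members was set apart in the same library, at 6.32. E2f1 stood apart in the other direction, at 4.66 in WT replicate 1, the lowest of the WT libraries. No group of Dp1Tyb libraries met the criterion.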

How the results depend on the processing

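With relative scaling, the calls over all tested genes rose from 2 to 52 with DESeq2 and to 29 with the replicate block, and fell to 0 where every library needed at least 10 counts, and lay between 1 and 2 when single libraries were left out. With spike-in scaling they were 4 with the replicate block and 0 with at least 10 counts, and between 2 and 8 when single libraries were left out (8 without Dp1Tyb replicate 2, 6 without WT replicate 1). No member was called under any of these settings. The numbers shared by WT and Dp1Tyb cultures correlated at 0.37, 0.52, 0.03 and 0.33 in their deviations from the group means for pairs 1 to 4. Pairs 1, 2 and 4 were the best match of their WT culture, a hint from the data that numbers may pair cultures, but WT replicate 3 correlated best with Dp1Tyb replicate 4 (0.32), and the sources used here do not say what a shared number marks. The log2 range of the S phase level over libraries (relative) lay between 0.98 and 1.62 and that of the G2/M level between 1.36 and 2.76 when single libraries were left out, both lowest without Dp1Tyb replicate 1, as were those with spike-in scaling, at 0.97 to 1.18 and 1.59 to 2.31. The G2/M level of Dp1Tyb minus WT lay between −0.51 without Dp1Tyb replicate 2 and 0.39 without Dp1Tyb replicate 1 (relative) and between −0.31 without WT replicate 3 and 0.41 without Dp1Tyb replicate 1 (spike-in), and the S phase difference between −0.26 and 0.27 and between −0.14 and 0.29 without the same libraries. With the replicate block the log2 fold changes of Cdk1 (−0.082), Ccnb1 (−0.088), Mcm5 (−0.039) and Kif11 (−0.12) changed sign with spike-in scaling, as did Cdk1 (−0.16), Ccnb1 (−0.16), Birc5 (−0.017) and Kif11 (−0.19) with relative scaling, and Top2a was 0.0023 with median-of-ratios factors, and the cause was not tested. Leaving out single libraries changed the sign of the fold change of 19 named genes, and the lowest and highest log2 fold changes, first with relative and then with spike-in scaling, were Mki67 −0.45 to 0.32 and −0.38 to 0.23, Top2a −0.42 to 0.42 and −0.23 to 0.30, Cdk1 −0.42 to 0.54 and −0.19 to 0.41, Ccnb1 −0.45 to 0.60 and −0.22 to 0.44, Cdc20 −0.42 to 0.62 and −0.29 to 0.49, Mcm2 −0.082 to 0.20 and −0.0099 to 0.26, Mcm5 −0.36 to 0.35 and −0.17 to 0.28, Pcna −0.28 to 0.22 and −0.11 to 0.22, Cdkn1a −0.25 to 0.14 and −0.14 to 0.41, Chek1 −0.33 to 0.057 and −0.23 to 0.12, Cdt1 −0.21 to 0.054 and −0.19 to 0.14, Foxm1 −0.37 to 0.20 and −0.32 to 0.19, Cenpa −0.63 to 0.36 and −0.46 to 0.19, Birc5 −0.25 to 0.57 and −0.059 to 0.46, Kif11 −0.37 to 0.53 and −0.18 to 0.40, E2f1 −0.081 to 0.065 and −0.083 to 0.28 and Kif15 −0.56 to 0.17 and −0.49 to 0.083. Ccne1 changed sign with relative scaling alone, at −0.029 to 0.52, and Wdr76 with spike-in scaling alone, at −0.29 to 0.057. With relative scaling Bub3 kept its sign at 0.022 to 0.29, both ends set by a Dp1Tyb culture (lowest without replicate 2, highest without replicate 1). The adjusted p of each of these genes stayed over 0.05 in every setting tried. The smallest count of any member in any library was 93.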

Other observations

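A few genes listed with the G2/M wave did not show its high and low cultures. These were picked after their values were seen. Gtse1, which encodes a microtubule-binding protein of G2 and S phase, was at 46.7, 44.9, 43.4 and 42.4 CPM in WT and 46.98, 45.5, 44.6 and 44.2 CPM in Dp1Tyb with relative scaling, a range of 1.11-fold. Psrc1, a spindle protein induced by p53, was highest in WT replicate 1 at 62.5 CPM and lowest in WT replicate 2 at 38.2 CPM. Pttg1 lay between 8.20 and 11.7 CPM in all 8 libraries. Myc, a growth-promoting transcription factor among the G1 regulators, was at 60.1, 70.4, 71.5 and 75.6 CPM in WT and 123 CPM in Dp1Tyb replicate 1, with 71.7, 75.3 and 78.0 CPM in the other 3 Dp1Tyb cultures, so its highest library was the one in which the S phase and G2/M members were lowest.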
